A study of Macaca mulatta with 52 samples.

Results

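Single rhesus monkey (Macaca mulatta) embryos at the morula stage differed in how much RNA of the genome-activation genes ZSCAN4, LEUTX and TPRX1 they held, and the 5 morulas with most of it were set against the 5 with least. The groups were chosen from measured values. Each of the 11 morula libraries of the SPIA kit received a score, the mean over the 3 genes of log2(CPM + 1), where CPM is a gene's count divided by the column total in M, mega counts. The 5 highest formed the high-score group, the 5 lowest the low-score group, and the 1 morula between them entered no group. Thus 10 of 11 morulas, out of 49 libraries of the series with a matched column, were compared. The labels name no treatment that separates the groups, so every difference below is an association with the score and not an effect of a treatment. The codes in the sample titles were spread unevenly over the groups, as given below.

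RNA sequencing in the series covered morulas, 8-cell embryos and both expanded and delayed blastocysts. All embryos came from in vivo matured oocytes of females given FSH and hCG, fertilised in vitro and cultured in HECM-9 medium, later with calf serum, with or without the peptide hormone relaxin. The labels do not say which embryos received relaxin, nor their parents. Each library is 1 embryo with all its cells, made with the SPIA kit (linear cDNA amplification) or with SoLo (a low-input kit with depletion of ribosomal RNA sequences). Where nothing says that embryos came from separate parents, p-values measure the spread between these embryos, which may share parents or a collection day.

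Before the embryo transcribes its own genome it runs on RNA and proteins stored by the oocyte. Genome activation in primates brings a burst of transcripts around the 8-cell stage, among them ZSCAN4, a zinc finger and SCAN domain protein tied to telomere maintenance, and LEUTX and TPRX1, paired-like homeobox transcription factors. These transcripts are transient, while oocyte RNAs are cleared by deadenylation and decay. As the morula compacts, cells adhere through E-cadherin and begin to diverge into trophectoderm and inner cell mass.

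The score spread over the whole range from 8-cell embryos to blastocysts. In falling order it was 7.68, 4.49, 2.56, 2.12 and 2.04 in the high-score morulas 022916_02, 020816_04, 022416_02, 022916_03 and 022916_01. The middle morula 022416_03 scored 1.94. The low-score morulas 021016_03, 020816_03, 021016_02, 020816_02 and 021016_04 scored 1.32, 0.89, 0.59, 0.55 and 0.42. In 8-cell SPIA embryos the score ran from 4.07 to 7.93 (median 7.52, n = 9), and in expanded blastocysts from 0.14 to 3.10 (median 0.54, n = 14). Only the first 2 morulas reached the 8-cell range, 020816_04 only through its lowest member. That 8-cell embryo, 020816_09, held 0.121 CPM of TPRX1, and the next 8-cell score was 6.49. Morula 020816_04 was below every 8-cell SPIA embryo for ZSCAN4 (at least 80.9 CPM) and LEUTX (at least 39.0 CPM). The limits of the groups fell between 2.04 and 1.94, a narrow gap, and between 1.94 and 1.32. The upper limit depends on scaling by column totals. Scaled by edgeR's TMM method, used further below, the middle morula held 70.3, 0.288 and 0 CPM of ZSCAN4, LEUTX and TPRX1. Embryo 022916_01 held 7.13, 1.73 and 2.81 CPM, and on that scale the order of these 2 morulas by score would be reversed. Levels of single genes below follow the orders of the scores listed above, high-score first.

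ZSCAN4 stood at 197, 72.1, 24.4, 43.9 and 6.52 CPM of the column total in the high-score morulas and at 3.83, 0.592, 0.708, 0.855 and 0.669 CPM in the low-score morulas. It was the one scored gene whose groups did not overlap. The middle morula, with 46.4 CPM, held more ZSCAN4 than 3 of the 5 high-score morulas. Counting error reaches the boundary: 33 counts in 022916_01 give an exact 95% binomial interval of 4.49 to 9.16 CPM, and 25 counts in 021016_03 give 2.48 to 5.65 CPM. Such intervals cover counting error only, since reads carry no molecular identifiers.

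LEUTX stood at 355, 13.8, 0.496, 0.746 and 1.58 CPM in the high-score morulas and at 1.22, 2.37, 0.283, 0 and 0.446 CPM in the low-score morulas. TPRX1 stood at 120, 9.45, 4.34, 0.0497 and 2.57 CPM, against 0.459, 0.197, 0.566, 0.684 and 0 CPM. Both genes overlapped between the groups, TPRX1 through 022916_03 alone. Taken as 3 counts of the library, the limit that a count of 0 allows is 0.513 CPM of LEUTX in 020816_02 and 0.334 CPM of TPRX1 in 021016_04. The name "keeping genome-activation transcripts" therefore covers all 3 genes in 022916_02 and 020816_04. In 022916_03 it covers ZSCAN4 alone, and 022916_01 held little of any of the 3. The groups are therefore called high-score and low-score.

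**Figure D1:**
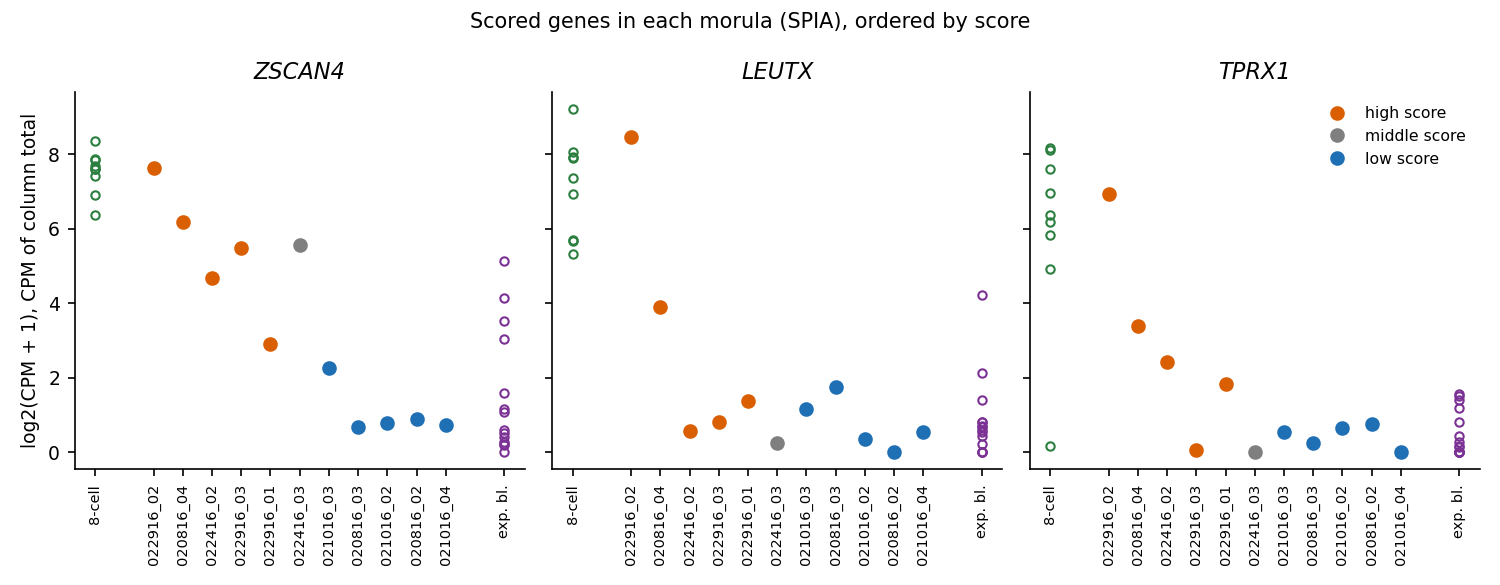
Each panel plots log2(CPM + 1) of 1 scored gene on the vertical axis, with CPM of the column total. Filled points are the 11 morulas in falling order of score, orange for high, grey for middle and blue for low score, and open circles are the 9 8-cell embryos (green) and 14 expanded blastocysts (purple). ZSCAN4 separates the groups, LEUTX overlaps beyond the first 2 morulas, and TPRX1 overlaps through 022916_03 alone.

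The low-input kit gave a second measurement of 3 of these embryos, not used for choosing them. In SoLo the high-score embryo 022916_01 held 6.98 CPM of ZSCAN4, 0.457 of LEUTX and 5.15 of TPRX1 (score 2.05). The low-score embryo 021016_03 held 19.3, 0 and 14.8 CPM (score 2.78), and the low-score embryo 021016_02 held 0.662, 0 and 5.39 CPM (score 1.14). Thus 1 of the 2 low-score embryos scored above the high-score embryo in that kit. All 3 stayed below the SoLo 8-cell embryos, whose lowest score was 7.35 (n = 4). The series also lists a SoLo library of the high-score embryo 022416_02, but no count column matched its title. SoLo comparisons below therefore rest on 022916_01 alone for the high-score group. With 1 high-score embryo measured in SoLo, no test was made.

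The libraries differed in more than the score. Total counts ran from 5.06 to 21.0 M. The 3 libraries over 12 M (022916_02, 022916_03 and 020816_04) were all high-score, and all 5 low-score libraries were under 12 M. Totals averaged 14.2 ± 7.25 M (SD, n = 5) in the high-score and 6.70 ± 1.47 M (n = 5) in the low-score group, with an exact two-sided permutation p of 0.0952 (0.337 adjusted over 5 library measures; the smallest p this design allows is 0.00794). A set of 13 abundant identifiers without a gene name took 34.9 ± 20.9% of counts against 51.9 ± 8.03% (n = 5 each, exact permutation p = 0.135, adjusted 0.337). That share was 16.5 to 25.4% in the 3 deep libraries and 41.1 to 60.4% in the other 8. Genes detected at a common depth of 5.06 M counts numbered 11420 ± 1449 against 12185 ± 1688 (n = 5 each, exact permutation p = 0.405, adjusted 0.575). In the high-score group 022916_03 (9525) and 022416_02 (10204) were lowest, and in the low-score group 021016_04 (9219). The common depth includes counts of the abundant unnamed identifiers, so the depth left for other genes still differed. Cytosolic ribosomal protein genes took 0.80 ± 0.359% against 0.766 ± 0.240% (n = 5 each, exact permutation p = 0.881).

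The first 6 digits of a title form a code whose meaning the labels do not give. The high-score group held 3 morulas of code 022916, 1 of 020816 and 1 of 022416, and the low-score group 3 of 021016 and 2 of 020816. Only code 020816 has morulas in both groups, 1 against 2. A fit with title code in the model takes its difference between the groups from that code alone. Score, title code and depth therefore cannot be told apart in most of these libraries.

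**Figure D2:**
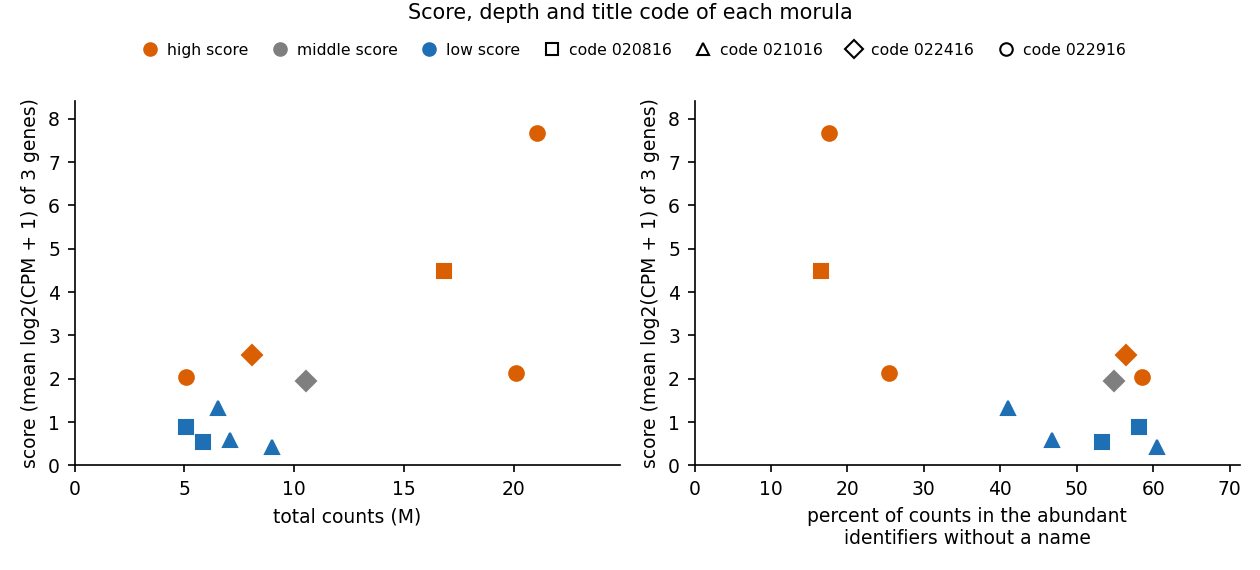
The score of each of the 11 morulas (vertical axis) is plotted against its total counts in M (left) and against the percent of counts in the 13 abundant unnamed identifiers (right). Colours give the score group and marker shapes the title code; the 3 libraries over 12 M counts are all orange.

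Markers of the stage and of other cell types were compared next. From here on, SPIA CPM are scaled by edgeR's TMM method over the SPIA libraries, and SoLo CPM over the SoLo libraries. CDH1, the E-cadherin of compacting cells, was present in all 11 morulas, at 72.2 to 578 CPM in high-score and 126 to 384 CPM in low-score morulas. AMOTL2, a Hippo pathway scaffold, stood at 10.4 to 192 and 10.9 to 84.5 CPM, above every 8-cell embryo (at most 2.15 CPM). CDH1 overlapped the 8-cell embryos (5.79 to 496 CPM). GATA3 was at 0 in 3 of 11 morulas and reached 10.8 CPM in 8-cell embryos. Among these markers, AMOTL2 alone set the morulas of both groups apart from 8-cell embryos. Of the cumulus and granulosa cell list, 21 of 25 genes had an identifier, and their summed level was 5.73 to 135 CPM in the high-score and 10.3 to 54.9 CPM in the low-score group (means 48.3 ± 51.4 and 25.7 ± 18.2 CPM, n = 5 each, exact permutation p = 0.460, adjusted 0.575). INHA was at 0 in 8, AREG in 7 and TNFAIP6 in 4 of 11 morulas, and VCAN in none; TNFAIP6 and VCAN each reached 16.5 CPM. Sperm markers (11 of 12 identified) summed to 35.2 to 175 and 17.6 to 81.4 CPM, with TNP1 at 0 in 10 morulas. Blood and immune markers (11 of 15) summed to 11.7 to 122 and 1.70 to 49.8 CPM, with PTPRC at 0 in 9. Medians of log2 fold change were 0.89 over the 4 cumulus markers tested and 0.74 over the 2 sperm markers tested, and 1.75 for the 1 blood marker tested. Their part in the results below was not tested.

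No gene passed the test between the groups, from which the 3 scored genes were left out. After filtering, 8860 identifiers were tested with edgeR's quasi-likelihood test, and 0 (0.0%) had an adjusted p under 0.05; the smallest was 0.632. At an unadjusted p under 0.05, 489 (5.52%) were higher and 134 (1.51%) lower in high-score morulas. Levels did not overlap between the groups for 42 identifiers higher (0.474%) and 26 lower (0.293%). The log2 fold change, high minus low, was above 0 for 5062 (57.1%), with a median of 0.18. Without 022916_01, 0 of 9319 were called, 905 (9.71%) had an unadjusted p under 0.05, and the smallest adjusted p was 0.222.

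Another test of the same counts did make calls. DESeq2 called 48 genes higher (0.542% of 8860) and 10 lower (0.113%) in high-score morulas. It gave no adjusted p for 1840 of the 8860, which could not be called. Of the 48, 45 had their highest value among the 5 high-score libraries in 022916_02 or 022916_03, a share not computed over all genes. Groups did not overlap for 11 of the 48. Limma's voom with sample quality weights called 0, with 447 at an unadjusted p under 0.05. The genes below did not pass the edgeR test, and their values are given as descriptions.

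Among genes with a name, the 6 with the lowest unadjusted p on the higher side were ITPRID2, NETO1, BAHD1, JAM3, IGHE and TOB1. ITPRID2, a protein that interacts with inositol trisphosphate receptors, stood at 152, 53.01, 15.8, 264 and 22.7 CPM in high-score morulas and at 3.51, 2.995, 1.57, 7.92 and 0.777 CPM in low-score morulas. The groups did not overlap, although the middle morula was at 1.87 CPM, inside the low-score range. Its log2 fold change was 4.79 ± 1.00 (SE), with an edgeR adjusted p of 0.632. In SoLo the low-score embryos 021016_02 and 021016_03 held 35.8 and 27.9 CPM of ITPRID2, and the high-score embryo 022916_01 held 63.1 CPM.

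NETO1, an auxiliary subunit of kainate-type glutamate receptors, stood at 677, 46.3, 6.56, 780 and 17.7 CPM against 6.46, 9.23, 2.05, 14.3 and 4.28 CPM. The morulas 022916_02 and 022916_03 were far above the others, and 022416_02 was inside the low-score range. Its log2 fold change was 5.26 ± 1.11 and was 1.54 ± 1.03 with the log10 total count in the model. In SoLo, NETO1 was the other way, at 2.96 CPM in the high-score and at 9.41 and 16.7 CPM in the low-score embryos. In 8-cell embryos NETO1 ran from 9.31 to 4488 CPM (median 116), and in expanded blastocysts from 0.112 to 38.8 CPM.

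BAHD1, a protein of heterochromatin, stood at 102, 13.5, 24.7, 103 and 21.6 CPM against 1.93, 0, 2.53, 0.704 and 2.72 CPM, with no overlap and a log2 fold change of 4.94 ± 1.17. In SoLo it was at 39.7 CPM in the high-score embryo and at 3.23 and 8.22 CPM in the low-score embryos. JAM3, a junctional adhesion molecule, stood at 50.003, 8.996, 16.6, 528 and 9.51 CPM against 3.17, 0.749, 7.24, 4.58 and 1.56 CPM. Its groups did not overlap in SPIA, with a log2 fold change of 5.02 ± 1.19, which was 2.54 ± 1.14 without 022916_03. In SoLo the order was the other way, with 1.61 CPM in the high-score and 13.5 and 2.54 CPM in the low-score embryos.

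IGHE, named for the constant region of the immunoglobulin epsilon heavy chain, stood at 238, 67.5, 570, 3.53 and 20.7 CPM against 2.49, 5.74, 8.202, 19.2 and 4.86 CPM, and its groups overlapped. In 8-cell embryos it ran from 34.3 to 1991 CPM. TOB1, an antiproliferative protein that recruits the CCR4-NOT deadenylase, stood at 321, 20.4, 22.7, 133 and 21.6 CPM against 1.70, 3.49, 8.202, 13.7 and 2.92 CPM. No low-score morula reached the lowest high-score morula, and the log2 fold change of TOB1 was 4.00 ± 0.99. The middle morula held 143 CPM of TOB1. In SoLo, TOB1 was at 22.3 CPM in the high-score and at 17.4 and 9.71 CPM in the low-score embryos.

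On the lower side, the 6 were ZNF662, AGAP1, SLC7A11, TRABD, WWC2 and HSDL2. ZNF662, a zinc finger protein, stood at 0.123, 0.0803, 0.313, 0.487 and 0.432 CPM in high-score morulas and at 1.02, 2.50, 31.2, 8.63 and 4.67 CPM in low-score morulas. The groups did not overlap, with a log2 fold change of -5.10 ± 1.48 and an edgeR adjusted p of 0.632. The SoLo libraries did not show that order, with 6.59 CPM in the high-score and 2.57 and 4.33 CPM in the low-score embryos.

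AGAP1, a GTPase-activating protein for Arf proteins, stood at 5.22, 4.46, 3.91, 1.89 and 8.43 CPM against 30.8, 101, 31.7, 3.35 and 56.2 CPM. Only 020816_02 of the low-score group reached the high-score range. In SoLo, AGAP1 lay at 44.2 CPM in the high-score and 49.9 and 47.1 CPM in the low-score embryos. SLC7A11, the cystine and glutamate antiporter and a target of the integrated stress response, stood at 1.77, 0.602, 0.625, 0.183 and 0.432 CPM against 21.0, 59.2, 3.14, 12.9 and 0.194 CPM. The low-score morula 021016_04 was the exception among its group. The log2 fold change of SLC7A11 was -4.82 ± 1.48.

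TRABD stood at 0.0402 to 2.16 CPM in high-score and at 0.389 to 70.4 CPM in low-score morulas, with overlap and a log2 fold change of -5.20 ± 1.64. WWC2, a scaffold of the Hippo pathway, was nearly level in high-score morulas (44.8 to 66.4 CPM). Its fold change of -2.34 ± 0.77 on the log2 scale came with 1107 CPM in 021016_04, whereas the other low-score morulas held 43.8 to 113 CPM. HSDL2, a peroxisomal protein related to hydroxysteroid dehydrogenases, likewise peaked in 021016_04, at 251 CPM against 4.19 to 15.8 CPM in the other low-score and 0.731 to 9.73 CPM in the high-score morulas. In SoLo, the high-score embryo was below both low-score embryos for SLC7A11 and WWC2, above both for TRABD, and between them for HSDL2.

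**Figure D3:**
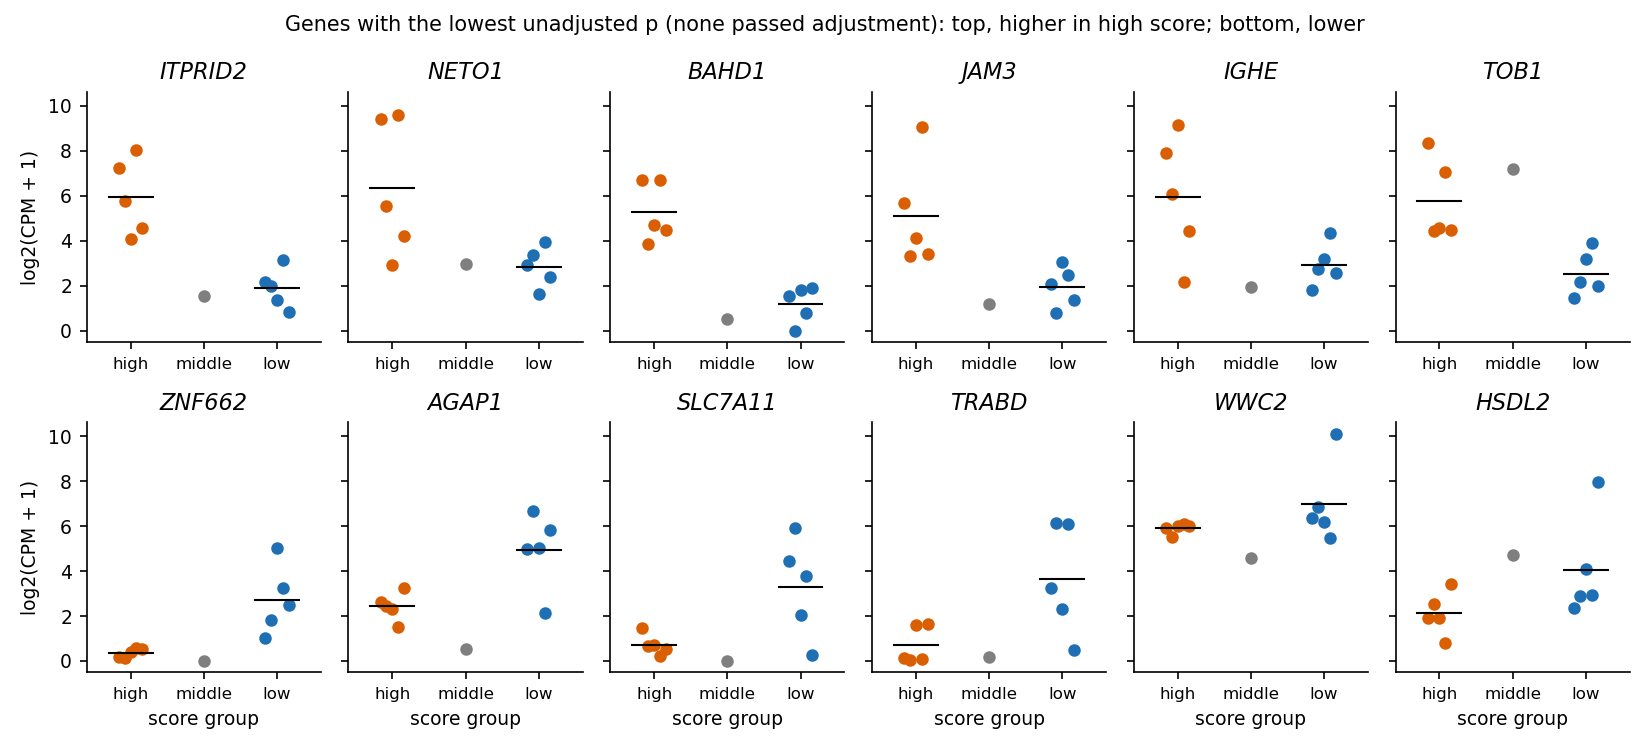
Points give log2(CPM + 1), with TMM-scaled CPM, of the 6 named genes with the lowest unadjusted p on each side in the 5 high-score, 1 middle and 5 low-score morulas, and lines give group means. ITPRID2, BAHD1, JAM3, TOB1 and ZNF662 do not overlap between the groups, and none of the 12 genes passed adjustment.

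The remaining genome-activation genes were read from a list of 45, of which 15 had a named identifier and 11 were tested. Homeobox genes DUXA, DPRX and ARGFX had no named identifier and were not analysed here. None of the 11 passed the test, 9 lay above 0 with a median log2 fold change of 1.12 (0.18 over all genes), and 3 had an unadjusted p under 0.05. Those 3, ZNF280A, OTX2 and MYC, were named after their values were seen, as were all further genes below that are neither among the 12 above nor in a set of 24 genes given whatever their values. Without 022916_02 the median was 0.19, and without 022916_01 it was 1.42. In libraries under 12 M counts (2 high-score against 5 low-score) it was -0.80, and with the total count in the model -0.48. That cut took out 022916_02 and 020816_04, with scores of 7.68 and 4.49. It left 022416_02 and 022916_01, with 2.56 and 2.04, against low scores of at most 1.32. The cut thus narrowed the score difference along with depth. Here and below, a changed sign under 12 M counts cannot separate depth from score.

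MYC, the growth-promoting transcription factor, stood at 285, 154, 58.8, 144 and 96.0 CPM in high-score and at 21.7, 26.5, 29.2, 25.7 and 3.30 CPM in low-score morulas. No low-score morula reached the lowest high-score morula, and the log2 fold change of MYC was 2.70 ± 0.69 (edgeR adjusted p = 0.632). In libraries under 12 M counts it was 1.83 ± 0.86. In SoLo, MYC was at 139 CPM in the high-score embryo and at 36.6 and 59.2 CPM in the low-score embryos, the same order as in SPIA.

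OTX2, a homeobox factor made by the oocyte and the early embryo, stood at 1108, 302, 12.03, 1957 and 34.8 CPM against 141, 47.9, 89.1, 38.0 and 13.8 CPM. The 3 deep libraries were above all low-score morulas, 022916_01 was inside the low-score range and 022416_02 below it. Its log2 fold change of 3.24 ± 0.96 became -1.52 ± 0.96 in libraries under 12 M counts. In SoLo, OTX2 was at 39.4 CPM in the high-score and at 222 and 377 CPM in the low-score embryos. ZNF280A stood at 633, 259, 120, 43.3 and 57.1 CPM against 58.5, 53.7, 21.4, 19.2 and 31.1 CPM (log2 fold change 2.48 ± 0.71, and 1.22 ± 0.75 under 12 M). CCNA1, a germline cyclin, stood at 75.4, 54.3, 1.25, 0.122 and 15.6 CPM against 1.13, 15.7, 6.75, 0.352 and 0 CPM.

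KLF17, a Krüppel-like factor of the 8-cell embryo, stood at 118, 11.004, 6.72, 1.22 and 22.9 CPM against 17.9, 69.1, 1.93, 4.40 and 0.389 CPM. A low-score morula (020816_03) thus held more KLF17 than 4 of 5 high-score morulas, and the log2 fold change of 0.63 ± 1.26 was under its error. SLC34A2, a phosphate transporter, was at 79.3, 25.8, 7.35, 2.31 and 10.4 CPM against 2.38, 38.2, 27.9, 15.3 and 1.17 CPM. RBP7 and RFPL1 did not pass the filter on low counts and were not tested. RFPL1 stood at 105 and 66.5 CPM in 022916_02 and 020816_04 and at no more than 3.89 CPM in any other morula, the same 2 embryos that held all 3 scored genes. RBP7, a retinol-binding protein, reached 3.61 CPM in 020816_04 and at most 0.250 CPM in the other morulas.

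Oocyte transcripts were most abundant in 022916_03 and 022916_02. Of 43 oocyte and maternal-effect genes, 33 were identified and 22 tested; 0 passed, 19 lay above 0 with a median log2 fold change of 1.30, and 6 had an unadjusted p under 0.05 (LHX8, NLRP9, BTG4, WEE2, OTX2 and DAZL). The mean level of the list, as log2(CPM + 1), was 6.36, 5.47, 3.21, 6.60 and 4.69 in high-score morulas and 4.43, 4.56, 4.41, 5.39 and 4.04 in low-score morulas. Embryo 022416_02 was thus the lowest of all, although it was in the high-score group. Under 12 M counts the median log2 fold change was -0.80, with the total count in the model -0.11, with title code in the model 0.25, without 022916_02 0.69 and without 022916_01 1.46.

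BTG4, the adaptor that brings CCR4-NOT to maternal mRNA, stood at 49.3, 9.76, 0.156, 328 and 9.51 CPM against 11.3, 3.99, 11.8, 9.33 and 2.53 CPM. Its log2 fold change was 3.22 ± 1.24, and 1.04 ± 1.23 without 022916_03. DAZL, a germ-cell RNA-binding protein, stood at 240, 23.8, 0.313, 482 and 7.35 CPM against 20.1, 9.23, 1.81, 10.7 and 2.92 CPM. WEE2, the oocyte kinase that inhibits CDK1, stood at 417, 70.6, 3.13, 867 and 17.5 CPM against 43.0, 57.7, 38.2, 78.2 and 37.9 CPM. In all 3 genes 022916_03 was highest and 022416_02 lowest, while both were high-score morulas. In SoLo the high-score embryo 022916_01 was below both low-score embryos for all 3, with 7.53 CPM of BTG4, 9.41 of DAZL and 35.1 of WEE2.

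NLRP5, a component of the subcortical maternal complex, stood at 48.3, 51.1, 0.313, 3.23 and 5.40 CPM against 3.97, 2.995, 6.51, 16.2 and 1.94 CPM (log2 fold change 1.68 ± 1.26). ZP3, a zona pellucida glycoprotein, stood at 44.8, 33.8, 0.156, 27.3 and 5.62 CPM against 3.06, 5.24, 1.21, 19.0 and 5.44 CPM (1.61 ± 1.23). UHRF1, the cofactor of maintenance DNA methylation, stood at 177, 133, 2.66, 74.0 and 14.3 CPM against 18.7, 12.2, 21.0, 37.2 and 11.3 CPM (1.89 ± 0.90). The 3 deep libraries were above every low-score morula for UHRF1 and ZP3. GDF9 and DPPA3 had no named identifier.

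Genes that store or clear maternal RNA (38 of 46 identified, 35 tested, 0 called) had a median log2 fold change of 0.77, with 31 above 0. Of these, 6 were higher and 1 lower at an unadjusted p under 0.05. The median was 0.36 without 022916_03 and 0.16 under 12 M counts. TOB1 and its paralog TOB2 (log2 fold change 3.57) both belonged to the 6.

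Trophectoderm genes were high in single embryos of either group. Of 41 genes, 34 were identified and 14 tested; 0 passed, 10 lay above 0 and the median log2 fold change was 0.98. Without 022916_01 the median was 0.17, with title code in the model -2.53 and in voom with quality weights -0.28. GATA2, a transcription factor of trophectoderm, stood at 262, 1.45, 1.72, 0.0609 and 115 CPM in high-score morulas and at 0.907, 0.250, 0.241, 13.9 and 0 CPM in low-score morulas. Its log2 fold change was 4.57 ± 1.76; without 022916_02 it did not pass the filter on low counts. Only 022916_02 and 022916_01 came within the expanded blastocyst range (9.14 to 352 CPM, median 244 CPM) in the high-score group. In the low-score group only 020816_02 did, at 13.9 CPM, near the lower end of that range and far below its median. GATA3, a second trophectoderm factor, stood at 126, 0.0803, 5.78, 0 and 41.3 CPM against 1.70, 0, 23.2, 16.4 and 0 CPM (2.01 ± 1.72). CDX2 had no named identifier.

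KRT18, a keratin of epithelial cells, stood at 1.60, 4.06, 10.9, 22.2 and 98.5 CPM against 6.58, 25.2, 11.6, 23.1 and 16.3 CPM. The log2 fold change of KRT18 was 0.69 ± 1.07 and turned to -0.88 ± 1.19 without 022916_01. ELF3, an epithelial transcription factor, stood at 16.5, 0.0402, 0.781, 4.45 and 121 CPM against 18.9, 57.9, 12.2, 38.4 and 9.72 CPM. Its log2 fold change was 0.03 ± 1.27, and -2.48 ± 1.38 without 022916_01. CLDN4, a tight junction protein, stood at 34.3, 0, 17.8, 0 and 66.1 CPM against 0, 5.49, 0.121, 43.0 and 0 CPM. Embryo 022916_01 was the highest morula for KRT18, ELF3 and CLDN4. In SoLo the same embryo held 804 CPM of KRT18, 95.6 of ELF3, 128 of CLDN4 and 227 of GATA2, whereas 021016_02 and 021016_03 held at most 52.0, 9.03, 0.149 and 0.598 CPM. In bulk samples, fewer cells of a type and less RNA per cell cannot be told apart.

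Pluripotency and epiblast genes (14 of 28 identified, 12 tested) had a median of -0.04, with 6 above 0. POU5F1 stood at 28.3, 60.8, 122, 110 and 48.4 CPM against 115, 113, 98.8, 87.9 and 6.22 CPM. NANOG stood at 1.69, 10.5, 34.4, 0.487 and 10.6 CPM against 6.46, 22.7, 7.00, 39.4 and 0.194 CPM, and was highest in the middle morula at 72.8 CPM. SUSD2, a surface marker of naive pluripotent cells, stood at 0.0411, 4.06, 10.2, 0 and 17.1 CPM against 8.16, 43.9, 25.8, 56.7 and 0.389 CPM (log2 fold change -2.14 ± 1.48). DNMT3L, a cofactor of de novo DNA methylation, stood at 14.4, 46.0, 56.3, 0.365 and 129 CPM against 22.2, 40.7, 23.9, 87.4 and 37.9 CPM. All 4 genes overlapped between the groups. In 022916_03, NANOG, SUSD2 and DNMT3L were all under 0.5 CPM.

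Primitive endoderm genes (11 tested of 25 identified and 30 listed) had a median of 0.55, with 3 at an unadjusted p under 0.05 (LRP2, FRZB and OTX2). GATA6 stood at 815, 270, 402, 283 and 448 CPM against 327, 300, 178, 544 and 89.4 CPM (log2 fold change 0.55 ± 0.49). FRZB, a secreted Wnt antagonist, rested on 797 CPM in 020816_04 and 72.1 CPM in 022916_02, with 0.844 to 8.10 CPM in the other 9 morulas. Cell junction and polarity genes (32 tested) had a median of 0.27, ion and water transport genes (11) 0.30, and Hippo pathway genes (15) 0.73. The Hippo median was 0.26 without 022916_03, 0.21 with the total count in the model and 0.25 under 12 M counts. With title code in the model, medians were -0.75 for primitive endoderm, -1.53 for pluripotency and -0.21 for junction genes.

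Genes of the unfolded protein and integrated stress response, which cells induce on protein folding or amino acid stress, lay on the other side of 0. Of 31 genes, 27 were identified and 25 tested; 0 passed, 19 lay below 0, the median log2 fold change was -0.74, and 3 were lower at an unadjusted p under 0.05 (HSPA5, HSP90B1 and CALR). The median stayed below that of all genes without 022916_01 (-0.88), under 12 M counts (-0.58) and with the total count in the model (-0.42). The mean level of the list was 4.61, 4.52, 4.89, 4.44 and 5.15 in high-score and 5.68, 5.88, 5.66, 5.21 and 5.14 in low-score morulas, as log2(CPM + 1). Only 021016_04, at 5.14, fell inside the high-score range.

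HSPA5, the chaperone BiP of the endoplasmic reticulum, stood at 322, 438, 569, 359 and 819 CPM against 1111, 2128, 1265, 124 and 1803 CPM. All low-score morulas but 020816_02 were above the high-score range, and the log2 fold change was -1.43 ± 0.55. HSP90B1, the chaperone GRP94, stood at 166, 110, 1009, 367 and 2294 CPM against 1582, 3552, 1891, 759 and 3493 CPM. PSAT1, a serine synthesis enzyme, stood at 0.247, 3.29, 182, 40.3 and 18.8 CPM against 168, 162, 75.6, 118 and 106 CPM. CHAC1, a glutathione-degrading enzyme induced by ATF4, stood at 0, 0, 30.0, 0.122 and 0.216 CPM against 15.2, 20.2, 24.1, 70.1 and 1.36 CPM. Apart from 30.0 CPM in 022416_02, no high-score morula exceeded the lowest low-score level of CHAC1. In SoLo, the high-score embryo held 1164 CPM of HSPA5, 11.2 of PSAT1 and 4.17 of CHAC1. The low-score embryos 021016_02 and 021016_03 held more of each, with 2571 and 2477 CPM of HSPA5, 115 and 410 of PSAT1 and 46.7 and 86.7 of CHAC1. HSP90B1 was the other way in SoLo, at 2600 CPM in the high-score and 2232 and 2068 CPM in the low-score embryos.

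The other lists held no called gene. Nuclear-encoded respiratory chain genes (43 tested) had a median log2 fold change of -0.41 with 15 above 0, and cytosolic ribosomal protein genes (54) -0.25 with 18 above 0. Medians were 0.51 for mitotic cell cycle genes (34), 0.38 for p53 and cell death genes (17), 0.20 for nucleolar ribosome biogenesis genes (44), 0.18 for DNA methylation and histone modifier genes (35), -0.02 for core and linker histone genes (8), -0.07 for glycolysis genes (17) and -0.17 for heat shock genes (11). Cholesterol synthesis genes (11) had a median of 0.47, which was -0.31 without 022916_01 and 1.46 under 12 M counts. Under 12 M counts the medians were -0.08 for mitotic cell cycle, -0.50 for p53 and cell death and -0.31 for nucleolar genes.

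**Figure D4:**
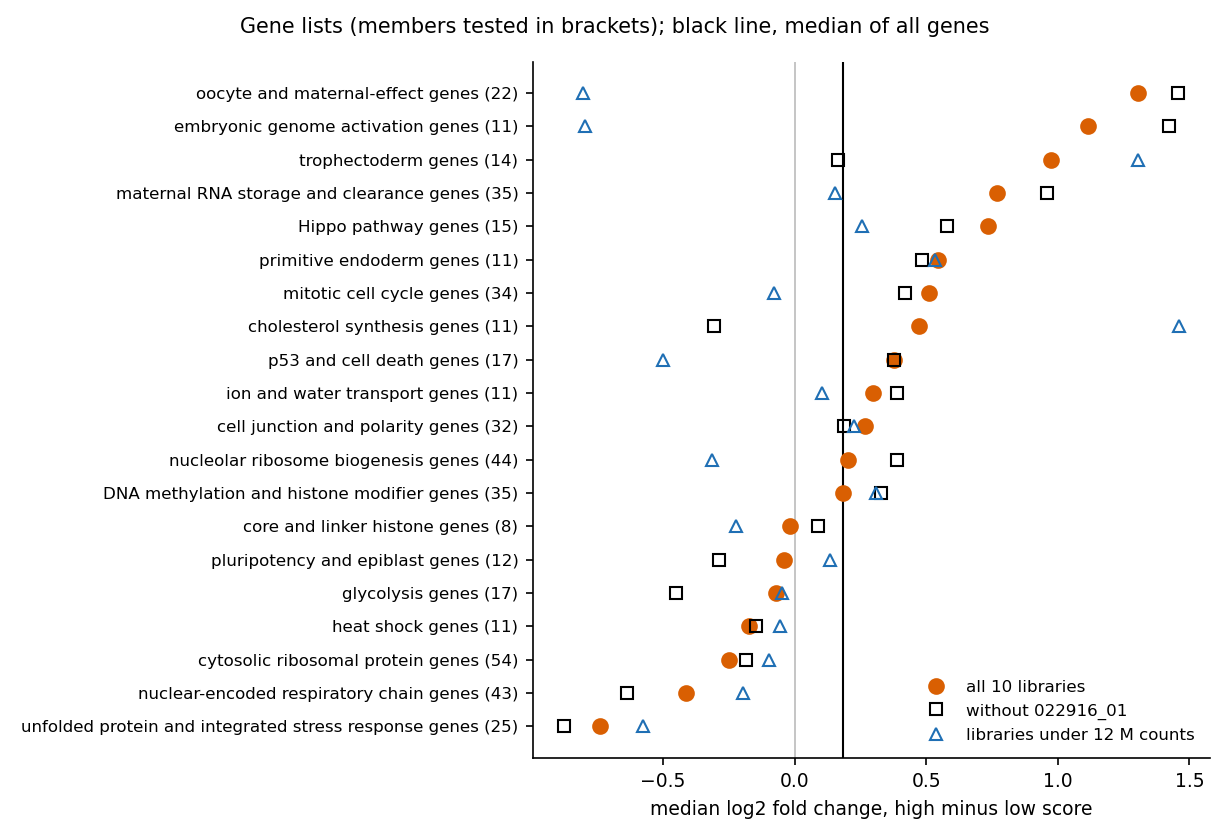
The horizontal axis is the median log2 fold change (high minus low score) of each gene list with 8 or more members tested, over all 10 libraries (orange), without 022916_01 (squares) and in libraries under 12 M counts (triangles). Oocyte and genome-activation lists lie at 1.30 and 1.12 over all libraries and at -0.80 under 12 M counts, whereas the unfolded protein list stays below 0 in all 3. The cut at 12 M also takes out the morulas with the highest scores.

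The groups were then read along the developmental axis, with genes chosen without any morula. Between 8-cell embryos and expanded blastocysts in SPIA, edgeR called 2349 of 10261 genes higher in 8-cell embryos (22.9%) and 1356 higher in expanded blastocysts (13.2%). After removing the 3 scored genes, 2346 remained on the 8-cell side, and 2075 of them were tested in morulas. Their median log2 fold change between the groups was 0.68, with 1576 (76.0%) above 0, 276 (13.3%) higher and 16 lower at an unadjusted p under 0.05, and 0 called. Of 1356 blastocyst-side genes, 1038 were tested, with a median of -0.14, 449 (43.3%) above 0, 17 higher and 26 lower. The medians of the 8-cell and blastocyst sides were 0.81 and -0.42 without 022916_01, and 0.40 and -0.04 without 022916_02. Under 12 M counts they were -0.25 and 0.06, and with title code in the model 0.48 and -1.06.

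The mean level of the 8-cell side genes, as log2(CPM + 1), was 5.34, 4.58, 3.84, 4.50 and 3.78 in high-score morulas and 4.18, 3.84, 4.03, 4.00 and 3.59 in low-score morulas. Thus the 3 deep high-score libraries lay above every low-score morula and the other 2 lay within their range (means 4.41 ± 0.64 and 3.93 ± 0.22, SD, n = 5 each). The blastocyst side genes stood at 2.81, 3.21, 3.54, 3.33 and 4.62 against 3.58, 3.83, 3.86, 4.14 and 3.52 (means 3.50 ± 0.68 and 3.79 ± 0.25). Within code 020816, the high-score morula stood at 4.58 and the 2 low-score morulas at 3.84 and 4.00 on the 8-cell side, and at 3.21 against 3.83 and 4.14 on the blastocyst side.

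Embryo 022916_02 fell among the 8-cell embryos on both axes (4.77 to 6.05 and 1.86 to 2.87, n = 9). Embryo 022916_01, also of the high-score group and of the same title code, had the highest blastocyst side level of the morulas, 4.62. Among expanded blastocysts that level was 4.798 to 5.16 in 13 libraries and 3.81 in 1 library of 0.601 M counts, so 022916_01 lay below the 13. The low-score morulas 020816_03, 021016_02 and 020816_02 also lay above 3.81. Of 2345 8-cell side genes, 022916_02 was the highest of the 11 morulas for 724 (30.9%) and 022916_03 for 528 (22.5%). Of 1354 blastocyst-side genes, 022916_01 was the highest for 264 (19.5%), 022916_03 for 195 (14.4%) and 022916_02 for 78 (5.76%). There 021016_04 was highest for 180 (13.3%) and 022416_03 for 171 (12.6%). Embryo 022916_03 was thus often highest on both sides. The libraries 022916_03, 021016_04 and 022416_03 had 9525, 9219 and 9347 genes detected at the common depth. The same shares over all genes tested were not computed.

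**Figure D5:**
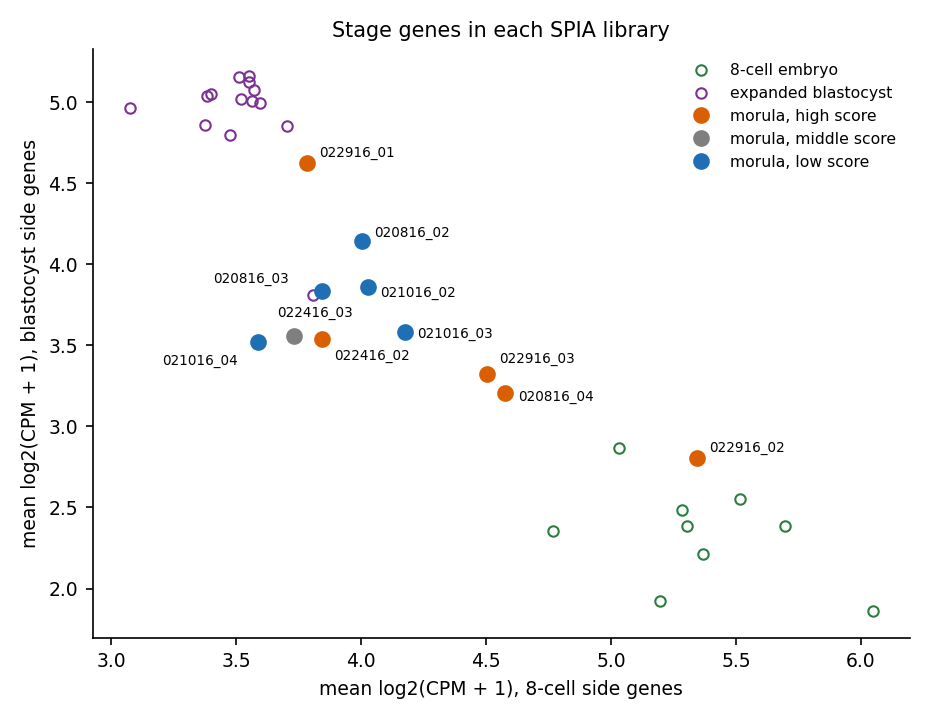
Each point is 1 SPIA library, with the mean log2(CPM + 1) of the 2346 8-cell side genes on the horizontal and of the 1356 blastocyst side genes on the vertical axis. High-score morulas (orange) run from 022916_02 beside the 8-cell embryos (green) to 022916_01 next below most expanded blastocysts (purple). The low-score morulas (blue) lie between them on the vertical axis, and 021016_04 lies left of 022916_01 on the horizontal axis.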

How the data were processed

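Counts per gene identifier were deposited by the authors as whole numbers, without normalisation, 1 column per library; HISAT2 and DESeq2 were used per the submitters' processing notes. For the counter, genome build, annotation and strandedness the sources used here give nothing, and paralogs or overlapping genes may share counts. Among 52 columns, 3 fitted no sample's title and stayed out. Names covered 15078 of 26309 identifiers.

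Members, lists and the rule for named genes were chosen with earlier results of these data known. The rule named the scored genes, the 6 genes with the lowest unadjusted p in each direction (none being called), any called list members, and 24 fixed genes, 18 with an identifier. Counts were tested with edgeR 4.0.16 (R 4.3.3; quasi-likelihood, robust, TMM, filterByExpr, Benjamini-Hochberg over all genes tested), the 3 scored genes left out of the tests. SE is the log2 fold change's standard error from the F statistic. DESeq2 1.42.0, limma 3.58.1 voom, other filters, scalings, covariates and left-out libraries were alternatives, and 2 restrictions (libraries under 12 M counts, code 020816) were chosen after seeing the data. The tests were checked on simulated data. Library measures used exact permutation over 252 arrangements (scipy 1.17.1). No 2 of 55 morula pairs agreed within sampling noise. The score groups do not come from the labels.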

Additional observations from a re-analysis of the deposited data

Results flagged for a closer look

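Among 118 groups of values examined, 7 held a library far from the 4 others of its score group by Dixon's criterion for 5 values; chance flags about 1 in 20 groups. In the high-score group, 020816_04 stood apart for RBP7 at 2.21 on the log2(CPM + 1) scale, with the next morula at 0.11, and 022416_02 for CHAC1 at 4.95, with the next at 0.28. In the low-score group, 021016_04 stood apart 3 times. It had 9219 genes detected at the common depth (the next had 12676), POU5F1 at 2.85 (the next 6.47) and MYC at 2.11 (the next 4.50). The low-score morula 020816_02 stood apart for GATA2 at 3.898 (the next 0.93) and for HSPA5 at 6.97 (the next 10.1). Their causes were not tested.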

How the results depend on the processing

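The 0 calls of the edgeR test held in every leave-one-out fit and with other scalings, the stricter filter, the score as a covariate, title code or depth as a covariate, and both voom fits. Exceptions were 1 call (ITPRID2) with no filter, 1 (ITPRID2) with all SPIA libraries fitted together, 58 with DESeq2 (48 higher, 10 lower; 1840 adjusted p not given) and 58 within code 020816 (12 higher, 46 lower, among them 12 of the abundant unnamed identifiers), where 1 morula met 2. The cause was not tested. Under 12 M counts the level difference was -0.11 for 8-cell side and 0.29 for blastocyst side genes. That cut also took out the morulas with the highest scores. DESeq2 size factors moved the median of all genes from 0.18 to 0.11. No paired analysis was possible because the groups hold different embryos and share no replicate number; with title code as a block in voom, the correlation within codes was -0.156, with 0 calls.

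Of 46 named genes with a fitted value, 23 kept 1 sign in every setting. The others turned as listed below. The fits with title code as a covariate and within code 020816 are not separate checks, since both take the difference from code 020816. With title code as a covariate and within code 020816, in that order, values were -1.90 and -1.84 (KLF17), -0.58 and -0.55 (DNMT3L), -2.37 and -2.35 (GATA2), -6.56 and -6.55 (GATA3), -0.75 and -0.72 (GATA6), -2.69 and -2.65 (KRT18), -9.99 and -9.97 (ELF3), -11.10 and -11.17 (CLDN4), -0.19 and -0.15 (SLC34A2), -0.057 and -0.023 (WEE2) and -0.27 and -0.24 (LHX8). With the total count in the model and under 12 M counts, they were 1.80 and 0.55 (NANOG), 0.64 and 0.69 (CDH1), -0.35 and -1.28 (UHRF1), -0.26 and -1.28 (ZP3), -0.13 and -1.17 (NLRP5), -0.58 and -1.52 (OTX2), -0.48 and -0.97 (SLC34A2), -0.10 and -1.27 (DAZL), -1.31 and -2.35 (WEE2) and -0.43 and -1.41 (NLRP13). The total count also turned POU5F1 (0.19) and CHAC1 (0.87), and the depth restriction KLF17 (-0.41) and BTG4 (-0.72). Voom with weights gave -0.84 for GATA3, -0.15 for KRT18, -3.10 for ELF3, -0.50 for BTG4 and -0.20 for WEE2, and the voom block -1.72 for DNMT3L, -0.79 for KRT18, -0.019 for AMOTL2 and -2.14 for ELF3. Over the score as a covariate, DNMT3L was at -0.23, KRT18 at -0.59 and ELF3 at -0.22 per unit of score. CDH1 and ELF3, near 0, also turned with no filter (CDH1 0.031), with library sizes without the abundant identifiers (CDH1 0.022), with all SPIA libraries (CDH1 0.050), with DESeq2 size factors (ELF3 -0.0025) and in DESeq2 (ELF3 -0.0015). Leaving out 1 library in turn gave KLF17 from -0.91 (without 022916_02) to 2.28 (without 020816_03), NANOG from -1.44 (022416_02) to 0.28 (020816_02), DNMT3L from -0.61 (022916_01) to 0.61 (020816_02), KRT18 from -0.88 (022916_01) to 1.00 (022916_02), CDH1 from -0.52 (022916_01) to 0.24 (020816_04), ELF3 from -2.48 (022916_01) to 0.52 (020816_03) and SLC34A2 from -0.63 (022916_02) to 1.02 (020816_03). At 5 to 9 M counts, a count of 0 (taken as 3 counts) allows 0.334 to 0.593 CPM, so differences of LEUTX and TPRX1 below that were not detectable.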
